A study of Mus musculus with 4 samples.

Results

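The genes described here were 8 scavenger and mannose receptors of macrophages, namely Mrc1, Msr1, Cd36, Stab1, Cd163, Folr2, Lyve1 and Timd4. They were chosen by name, and each was found by its Ensembl identifier among the 12596 genes of a UMI table of 943 cells. A UMI (unique molecular identifier) is a tag that marks 1 captured RNA molecule. The study asked how particles of polluted air change macrophages of the gut after oral exposure. Male C57/Bl6N mice received 12 µg of diesel exhaust particles (DEP) in 200 µL of PBS by gavage on 5 days a week for about 6 months, and control mice received the PBS alone. Cells of the colon lamina propria that carried Cd11b together with Ly6c2 or Cd64 were sorted from 2 DEP mice (numbered 14 and 15) and 2 PBS mice (numbered 2 and 3). Each mouse was captured in 1 well of a 10x Single Cell 3′ run, so that a difference between wells and a difference between mice cannot be told apart.

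Scavenger receptors bind modified proteins, lipoproteins, dying cells and other debris and carry them into the lysosome, and mannose receptors take up glycoproteins with exposed mannose. Monocytes that enter the gut wall lose monocyte genes as they become resident macrophages, which produce complement C1q and clear debris beneath the epithelium. Several of the receptors, among them Cd163, Folr2, Lyve1 and Timd4, are in wide use as markers of long-lived tissue macrophages.

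The genes lie on 7 chromosomes of GRCm38. By the GENCODE annotation, Mrc1 spans chr2:14229392-14332057 on the plus strand, Msr1 chr8:39581685-39642673 on the minus strand and Cd36 chr5:17781690-17888801 on the minus strand. Stab1 spans chr14:31139013-31168641 on the minus strand and Cd163 chr6:124304656-124330527 on the plus strand. Folr2 at chr7:101839988-101857194 and Lyve1 at chr7:110850607-110863239, both on the minus strand, share a chromosome, and Timd4 spans chr11:46810800-46844332 on the plus strand.

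The 250 bases before the start of transcription are shown for Mrc1, Stab1, Cd36 and Cd163, which were all higher in C1q-high than in Plac8-high cells (values follow). They come from RefSeq on GRCm38.p6 and lie at chr2:14229164-14229413 (plus strand), chr14:31168642-31168891 (minus), chr5:17835897-17836146 (minus) and chr6:124304401-124304650 (plus). Capitals mark GAGGAA, the core bound by the myeloid factor PU.1, or TGCTGA, a half-site of MAF factors, or their reverse complements TTCCTC and TCAGCA.
Mrc1: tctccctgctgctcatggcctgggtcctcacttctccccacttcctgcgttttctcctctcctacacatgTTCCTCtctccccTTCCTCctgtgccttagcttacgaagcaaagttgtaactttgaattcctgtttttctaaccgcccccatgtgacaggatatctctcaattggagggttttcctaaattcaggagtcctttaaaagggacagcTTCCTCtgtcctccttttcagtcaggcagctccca
Stab1: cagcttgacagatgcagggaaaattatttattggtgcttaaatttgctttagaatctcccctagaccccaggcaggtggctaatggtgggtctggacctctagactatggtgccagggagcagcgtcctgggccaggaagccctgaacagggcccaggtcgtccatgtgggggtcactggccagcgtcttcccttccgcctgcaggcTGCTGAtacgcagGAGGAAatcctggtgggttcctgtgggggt
Cd36: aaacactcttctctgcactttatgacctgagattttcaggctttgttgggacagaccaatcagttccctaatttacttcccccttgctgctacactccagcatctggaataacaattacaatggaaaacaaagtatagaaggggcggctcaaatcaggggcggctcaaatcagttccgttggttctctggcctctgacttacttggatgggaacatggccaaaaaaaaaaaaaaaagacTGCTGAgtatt
Cd163: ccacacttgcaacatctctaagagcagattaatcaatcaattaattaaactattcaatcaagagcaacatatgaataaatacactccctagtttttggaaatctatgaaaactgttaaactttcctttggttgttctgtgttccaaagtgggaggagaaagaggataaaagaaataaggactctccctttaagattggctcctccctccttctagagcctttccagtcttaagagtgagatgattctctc

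Promoters were found for 6 of the 8 genes, with 2 windows for Folr2. GAGGAA was present on either strand in 2 of the 6, with 3 copies in the Mrc1 window and 1 in the Stab1 window, against 23.3% of all 32851 promoter windows of the same length. TGCTGA was present in 4 of the 6 (Cd36, Folr2, Stab1 and Timd4), against 16.1% of all windows. The E-box CACGTG was present in 0 of the 6, against 6.02% of all windows. A match of letters is a description of the window and not a bound site, and the window of Cd163 held none of the 3 motifs. By the annotation, 28 bases of the Cd163 window lie in an exon of the gene Gm25311 and 22 bases of the Mrc1 window in an exon of Mrc1 itself, and the windows of Stab1 and Cd36 overlap no exon.

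The deposited table held between 747351 and 1349134 UMIs per mouse. After cells with markers of other cell classes were left out, 770 cells were retained (147 and 254 of DEP mice 14 and 15, 178 and 191 of PBS mice 2 and 3). Cells were called C1q-high where C1qa, C1qb and C1qc made up 0.5% or more of their UMIs (623 cells) and Plac8-high where they had 2 or more UMIs of the monocyte gene Plac8 (180 cells). Of these, 49 cells met both rules, 574 were C1q-high only and 131 were Plac8-high only, and 12 cells lay at 0.4% to 0.6% C1q and 17 had exactly 2 Plac8 UMIs. Of 13 resident macrophage markers, 11 were higher in C1q-high only than in Plac8-high only cells in all 4 mice, and 12 of 13 monocyte markers were lower. The summed monocyte markers made up a median of 1.49% of the UMIs of a cell in C1q-high only, 2.31% in cells of both classes and 6.40% in Plac8-high only cells. Plac8-high only cells also carried dendritic cell markers at 0 to 299.5 CPM, that is, per 1000000 UMIs. Of the cells left out, 157 had 3 or more B or plasma cell markers, and 138 of these were C1q-high. The share left out was 22.2% and 24% in the DEP mice and 11% and 13.2% in the PBS mice, and with the immunoglobulin genes removed from the marker list 37 cells were left out in all. Results are given with all deposited cells where that matters. The libraries shared 1 cell barcode.

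Mrc1, Stab1, Cd36, Cd163 and Folr2 were far higher in C1q-high than in Plac8-high cells, Msr1 was found in both, Lyve1 was found in C1q-high cells and in cells of both classes, and Timd4 was close to absent. The classes were cut on C1q and Plac8 alone, so that none of the receptors took part in defining them. Levels are UMIs per 1000000 UMIs of a class in a mouse (CPM), and each gene is compared with itself across cells, not with the other receptors.

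Mrc1, the mannose receptor CD206, had 353 and 264 CPM in the C1q-high only cells of DEP mice 14 and 15 and 249 and 319 CPM in those of PBS mice 2 and 3. In Plac8-high only cells it had 29.1, 5.87, 0 and 45.1 CPM in the same order. The lowest of the C1q-high only values lay far above the highest of the Plac8-high only values. Over the 4 mice the level was 296 ± 48.5 CPM (SD, n = 4) against 20.0 ± 20.9 CPM. In edgeR's quasi-likelihood test with the mouse in the model and Benjamini-Hochberg adjustment over 5306 genes, Mrc1 was higher by 4.17 on the log2 scale (SE 0.349, adjusted p = 2.82e-13). A UMI of Mrc1 was found in 56.4% of C1q-high only cells and in 5.34% of Plac8-high only cells. Free RNA can give a UMI to a cell that does not express a gene, and 16 cells with B or plasma cell markers and little C1q served as its measure, with an Mrc1 share of 12.5% (2 of 16, exact interval 1.55% to 38.3%), 4 of its 5 UMIs being in 1 cell. The share of Plac8-high only cells was not above it, and is not read as expression. Median depth was 3726 UMIs in C1q-high only cells, 3197 in Plac8-high only cells and 3866.5 in the 16 cells. The other receptors except Msr1 had 0 of the 16 cells with a UMI, which allows a share of up to 18.8%.

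Stab1, a scavenger receptor that clears modified proteins and matrix fragments, had 126, 94.7, 71.4 and 114 CPM in the C1q-high only cells of mice 14, 15, 2 and 3. Plac8-high only cells had 0, 17.6, 40.0 and 11.3 CPM. The classes did not overlap, and the difference was 3.05 (log2, SE 0.445, edgeR adjusted p = 5.12e-07).

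Cd36, a class B scavenger receptor for fatty acids and oxidised lipoprotein, had 64.0, 77.6, 40.5 and 71.3 CPM in the C1q-high only cells. In Plac8-high only cells it was seen as 1 UMI, in mouse 15. The pooled ratio was 26.8, with a counting interval of 4.74 to 1065, and edgeR gave 4.87 (log2, SE 0.716, adjusted p = 6.39e-07).

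Cd163, the receptor for haemoglobin bound to haptoglobin, had 53.7, 45, 5.79 and 22.5 CPM in the C1q-high only cells, with the 2 DEP mice above the 2 PBS mice. Plac8-high only cells held 1 UMI, in mouse 2, whose 20.0 CPM lay above the 5.79 CPM of its own C1q-high cells. At 3 counts the limits of Plac8-high only cells were 60.0 CPM in mouse 2 and 33.8 CPM in mouse 3. Both PBS values lay below them, so that the classes cannot be told apart within the PBS mice. The DEP values lay above their limits of 29.1 CPM in mouse 14 and 17.6 CPM in mouse 15. The pooled ratio was 12.8 (counting interval 2.23 to 512), and edgeR gave 3.95 (log2, SE 0.921, adjusted p = 0.00108). DESeq2 gave 3.39 with an adjusted p of 0.059, which did not pass the threshold of 0.05.

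Folr2, a folate receptor, had 45.4, 40.3, 15.4 and 30.0 CPM in the C1q-high only cells. Plac8-high only cells held 1 UMI, in mouse 3. Both PBS values lay below 3 counts in the Plac8-high only cells, 60.0 CPM in mouse 2 and 33.8 CPM in mouse 3. The classes therefore cannot be told apart within the PBS mice, whereas both DEP values lay above their limits of 29.1 and 17.6 CPM. The pooled ratio was 13.5 (counting interval 2.35 to 539), and edgeR gave 3.93 (log2, SE 0.875, adjusted p = 0.000627).

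Msr1, the class A scavenger receptor that binds modified lipoprotein, was detected in both classes. C1q-high only cells had 122, 112, 127 and 77.6 CPM and Plac8-high only cells 126, 170, 140 and 56.4 CPM. The ranges overlapped widely, and the test gave 0.07 (log2, SE 0.247, adjusted p = 0.905). The pooled ratio of C1q-high only to Plac8-high only cells was 0.808, with a counting interval of 0.601 to 1.10. The sign depended on the scaling, since library size alone gave −0.22 in place of 0.07. A UMI was found in 27.5% of C1q-high only and 30.5% of Plac8-high only cells, against 3 of the 16 cells with B or plasma markers (18.8%, exact interval 4.05% to 45.6%). The shares of both classes lay above 18.8% but inside that interval, and the part of free RNA in them was not tested.

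Lyve1, a hyaluronan receptor, and Timd4, a receptor for phosphatidylserine on dying cells, were too rare for the filter on low counts, which asked for more than 1 CPM in 2 libraries and a UMI in 5% of cells. Lyve1 had 31.0, 34.1, 7.72 and 8.76 CPM in the C1q-high only cells of mice 14, 15, 2 and 3. It had 0 UMIs in the 131 Plac8-high only cells, which allows a UMI in up to 2.29% of cells. The pooled C1q-high only level was at least 2.70-fold higher than the limit of 3 counts over the pooled Plac8-high only cells, 7.28 CPM, and the counting interval of the ratio began at 2.11. The PBS mice, at 7.72 and 8.76 CPM, lay close to that pooled limit. They lay below the limits of their own Plac8-high only cells, 60.0 CPM in mouse 2 and 33.8 CPM in mouse 3. Within the PBS mice the classes therefore cannot be told apart. The DEP mice lay above their own limits of 29.1 CPM in mouse 14 and 17.6 CPM in mouse 15. Timd4 was seen as 2 UMIs in 1 Plac8-high only cell of mouse 15. In the 623 C1q-high cells it had 0 UMIs, which allows a UMI in up to 0.482% of cells and sets no limit on cells that express the gene. Among the C1q-high cells left out, 1 cell of mouse 15 had 1 Timd4 UMI.

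**Figure D1:**
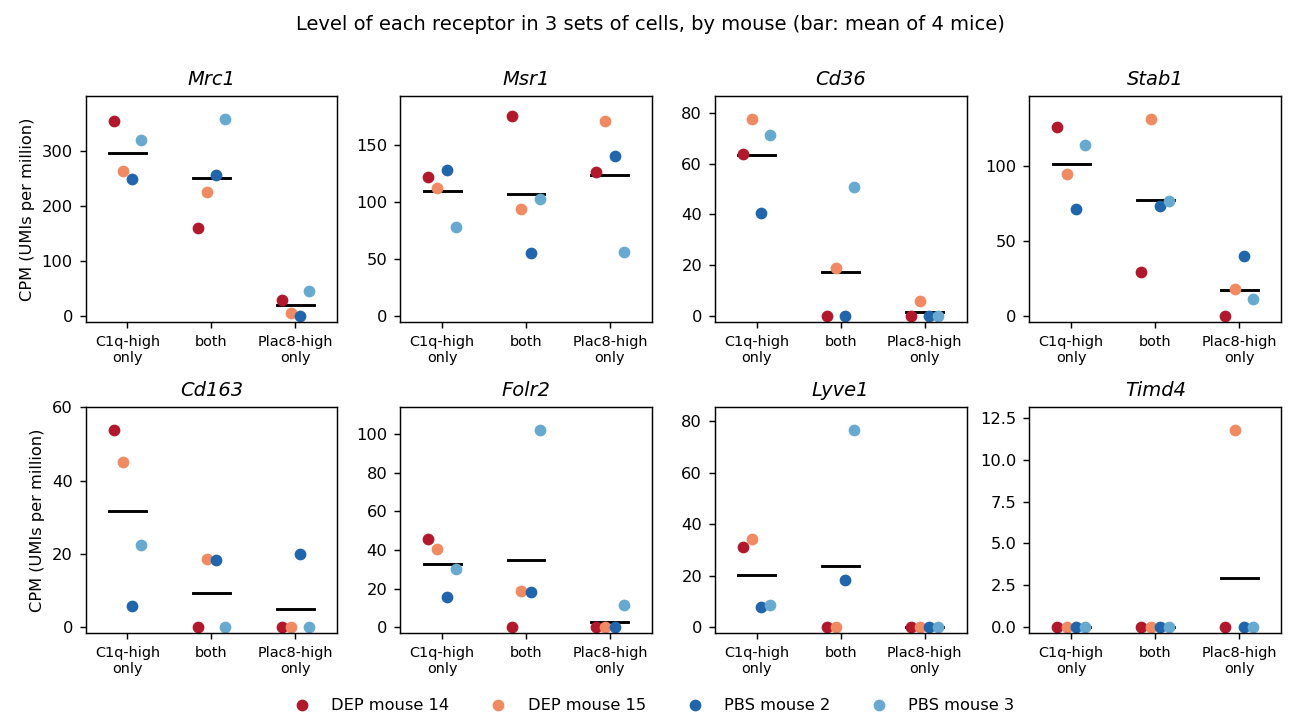
Level of each receptor (y axis, CPM) in C1q-high only cells, cells of both classes and Plac8-high only cells (x axis), with 1 point per mouse and a bar at the mean of the 4 mice; the y axes differ between panels. Mrc1, Stab1 and Cd36 lie higher in C1q-high only than in Plac8-high only cells in every mouse, whereas Msr1 overlaps at 77.6 to 127 against 56.4 to 170 CPM.

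In this comparison 20.0% of the 5306 genes tested passed the threshold, 603 of them higher and 456 lower in C1q-high cells. Of the 8 receptors 6 were tested, and 5 (Mrc1, Cd36, Stab1, Cd163 and Folr2) were higher and 0 lower. The median log2 difference of the 6 was 3.94, beside 0.10 over all genes. The filter on low counts pooled 574 C1q-high only with 131 Plac8-high only cells. Cd36, Stab1, Cd163 and Folr2 had a UMI in 0.763% to 3.05% of Plac8-high only cells, below its 5%. They passed it through the C1q-high only cells, which favoured the direction of their calls in advance. The count and the median are therefore a description. With library size in place of TMM factors 440 genes were higher and 851 lower and the median of all genes was −0.18, and the same 5 receptors passed. Counting error and free RNA set the precision of the low values, and intervals cover counting error only.

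In the 49 cells of both classes Mrc1 and Stab1 lay above Plac8-high only cells in every mouse. The Cd36 values lay below those of C1q-high only cells in every mouse, but rested on 3 UMIs. In mouse 2 the 0 UMIs of Cd36 allow up to 55.0 CPM, above the 40.5 CPM of C1q-high only cells. In mouse 3 its 2 UMIs gave 51.0 CPM against 71.3 CPM, where 3 counts would give 76.5 CPM. Within the PBS mice the order of the 2 classes is therefore not settled. These comparisons were added after the values were seen. Mrc1 had 160, 225, 257 and 357 CPM in the cells of both classes of mice 14, 15, 2 and 3, all above the Plac8-high only values. It was higher than in Plac8-high only cells by 3.59 (log2, SE 0.463, edgeR adjusted p = 7.24e-11). Stab1 had 29.1, 131, 73.3 and 76.5 CPM and was higher than in Plac8-high only cells by 2.36 (log2, SE 0.667, adjusted p = 0.0125). These 2 receptors were called of 6 tested, against 5.98% of all genes, and the call of Stab1 was lost without mouse 15.

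Cd36 had 0, 18.7, 0 and 51.0 CPM in the cells of both classes and was higher in C1q-high only cells by 2.36 (log2, SE 0.680, adjusted p = 0.0268). It was the 1 receptor of 6 called, against 2.86% of all genes, and rested on 3 UMIs in the 49 cells. Over the alternatives the adjusted p ran from 0.00633 to 0.38, and the call was lost under most of them, among them leaving out mouse 14, 15 or 2. Mrc1 was higher in C1q-high only cells than in cells of both classes by 0.54 (log2, SE 0.252) and was not called. EdgeR gave it an unadjusted p of 0.0344 and an adjusted p of 0.36, and C1q-high only cells were higher in 2 of the 4 mice. Msr1 had 175, 93.7, 55.0 and 102 CPM and spanned both other classes. Cd163 was seen as 2 UMIs, Folr2 as 6 and Lyve1 as 4. Pooled median depth was 3474 UMIs in cells of both classes, 3726 in C1q-high only and 3197 in Plac8-high only cells, but the order differed between mice. Cells of both classes were the deepest in mouse 15 (5205 against 3333 and 2994 UMIs) and mouse 3 (5169.5 against 4636 and 3893). They were the shallowest in mouse 2 (2043.5 against 2849.5 and 3112.5) and lay between in mouse 14. Whether some were 2 cells in 1 droplet was not tested.

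**Figure D2:**
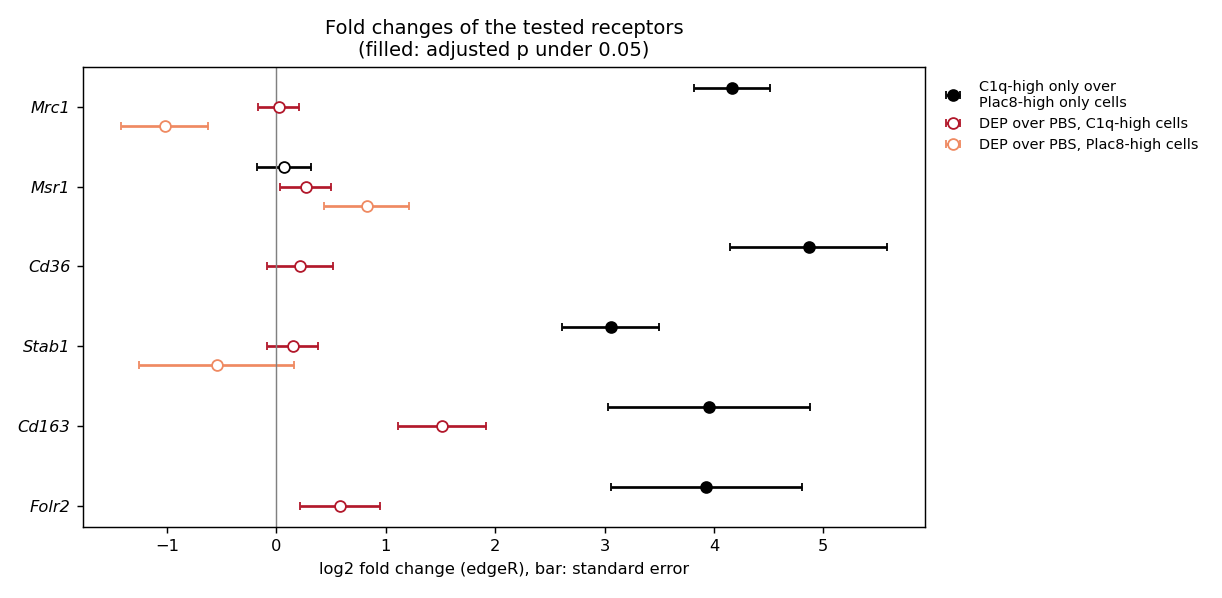
Fitted log2 fold change (x axis) with its standard error for each tested receptor (y axis), for C1q-high only over Plac8-high only cells and for DEP over PBS within C1q-high and within Plac8-high cells; filled points passed an adjusted p of 0.05 in edgeR. The 5 filled points lie between 3.05 and 4.87, all in the comparison of classes, and no DEP against PBS point is filled.

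Other genes of the clearance pathway were read from lists chosen with earlier results of these data known. Of 37 other scavenger and clearance receptors 16 could be tested, of which 8 were higher in C1q-high only cells and 2 in Plac8-high only cells, with a median log2 difference of 0.96. Calls in this list and in the other lists of this comparison stand beside 20.0% of all genes called. The highest were Itgb5 (3.65), Mertk (3.17), Cxcl16 (2.96), Cd93 (2.71) and Axl (2.39). Mertk was at 2.43 CPM in Plac8-high only cells, below the 7.28 CPM of 3 counts, so that its size (SE 1.02) and rank are imprecise. Itgb5 is an integrin subunit for the bridging molecule Mfge8, Mertk and Axl are receptors for Gas6 on dying cells, and Cxcl16 doubles as a scavenger receptor for oxidised lipid. Scarb1 (−1.16), the receptor for high-density lipoprotein, was among those higher in Plac8-high only cells.

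Of 6 bridging molecules, which link debris to receptors, 4 were higher and 1 lower in C1q-high only cells, but 3 of the 4 were C1qa, C1qb and C1qc, which the class rule used. The other 2 were Gas6 at 4.50 and Thbs1, which encodes thrombospondin, at −2.65. Of 12 genes of receptor uptake, 3 were higher and 0 lower, a share near the 20.0% of all genes, namely Dab2 (4.99), an adaptor that recruits receptors to clathrin, Cltc (1.23) and Clta (0.52), the chains of clathrin. Of 4 genes that handle haemoglobin beside Cd163, Blvrb (1.70), Fth1 (1.10) and Ftl1 (0.39) were higher, and Hmox1, the enzyme that opens haem, had −0.13 and was not called. Of 9 genes reported in long-lived macrophages, 8 were higher, led by Pf4 (6.70), Ccl8 (6.55), Gas6 (4.50), Cd4 (4.41) and Cbr2 (3.13), and F13a1 (−2.13) was lower. In Plac8-high only cells Gas6 and Cd4 were at 2.43 CPM and Cbr2 at 4.85 CPM, below the 7.28 CPM of 3 counts. Their sizes are therefore imprecise (SE 0.762, 0.780 and 0.774).

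In the cells of both classes against Plac8-high only cells, 4 of the 16 other clearance receptors were higher (Itgb5 3.40, Cd93 2.33, Cxcl16 2.0 and Axl 1.87) and Cd300a (−1.25) was lower, where 5.98% of all genes were called. Of the uptake genes, Dab2 (3.62) and Cltc (1.65) were higher and Lamp2 (−0.90) was lower. Of the haemoglobin genes, Fth1 (0.63) was higher and Hmox1 (−1.21) lower. Of the genes of long-lived macrophages, Pf4 (5.56), Ccl8 (5.41), Gas6 (3.87) and Maf (2.75) were among those higher and F13a1 (−1.58) was lower. Gas6 was again set against 2.43 CPM in Plac8-high only cells (SE 1.13). Between C1q-high only cells and cells of both classes 2.86% of all genes were called. Of the 16 other clearance receptors, Cxcl16 (0.91) and Cd300a (1.06) were higher in C1q-high only cells. Of the 12 uptake genes, Dab2 (1.30) and Lamp2 (0.85) were higher. Of the 6 bridging molecules, a list that holds the C1q genes of the class rule, 3 were higher and 1 lower. Of the 9 genes of long-lived macrophages 2 were higher, and of the 4 haemoglobin genes 0 were called.

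DEP against PBS was compared in C1q-high cells, those of both classes included, and none of the 6 tested receptors passed. Cd163 and Lyve1 were higher in both DEP mice than in both PBS mice in CPM and in shares of cells, and Folr2 in CPM. In shares of cells 24.7% of all genes were also without overlap, a share near that of the receptors. No such background is given for CPM, so that the CPM order is a description. Lyve1 was below the filter on low counts and was not tested. Cd163 had 47.0 and 43.0 CPM in the C1q-high cells of DEP mice 14 and 15 and 6.99 and 21.5 CPM in those of PBS mice 2 and 3. A UMI was found in 9.65% and 9.52% of cells in the DEP mice and in 1.90% and 7.41% in the PBS mice. The DEP mice lay close together and the PBS mice apart, mouse 2 being lowest. EdgeR gave 1.52 on the log2 scale for DEP over PBS (SE 0.403, unadjusted p = 0.00171, adjusted p = 0.491), and the direction was the same with each mouse left out, at 1.05 without mouse 2 and 2.62 without mouse 3. With no filter on low counts the adjusted p was 0.0362, and over all alternatives it ran from 0.0362 to 1. With all deposited cells the shares were 7.38% and 8.37% against 1.70% and 6.91%, and the difference was 1.27 (log2, adjusted p = 0.776).

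Lyve1 had 27.1 and 31.5 CPM in C1q-high cells under DEP and 8.73 and 11.9 CPM under PBS. A UMI was found in 4.39% and 4.76% of cells of the DEP mice and in 2.53% and 3.09% of the PBS mice. These were 23 cells in all, 5 and 9 in the DEP mice and 4 and 5 in the PBS mice. Lyve1 also marks lymphatic endothelium, and stromal or endothelial markers over all C1q-high cells summed to 56.1 CPM in mouse 14 and 48.7 in mouse 15, above the 31.4 and 44.1 CPM of mice 2 and 3. Of 15 such markers 8 were in the table, Pecam1, which macrophages also express, gave 85 of their UMIs and Dcn, the next, 16, and Col1a2 was at 0. These markers summed to 25.4 CPM in the 23 cells with Lyve1 and to 45.7 CPM in the other C1q-high cells. A UMI of any of them was found in 2 of the 23 cells with Lyve1 and in 16.5% of the 600 without, and the lowest C1q share among the cells with Lyve1 was 1.06%. Over all deposited C1q-high cells the Lyve1 shares were 3.36% and 3.98% under DEP and 2.27% and 3.19% under PBS, still without overlap.

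Mrc1 was 295 ± 48.4 CPM in DEP and 285 ± 50.3 CPM in PBS mice (SD, n = 2 each), a difference of 0.02 (log2, SE 0.186). Msr1 was 119 ± 12.8 against 99.6 ± 29.5 CPM, a difference of 0.27 (SE 0.233). Stab1 was 106 ± 11.7 against 91.9 ± 28.7 CPM (0.15, SE 0.233) and Cd36 64.6 ± 12.0 against 53.5 ± 23.8 CPM (0.22, SE 0.301). For each of these 4 the mice of the groups overlapped in the share of cells with a UMI. Folr2 had 39.8 and 38.7 CPM under DEP and 15.7 and 33.4 CPM under PBS, without overlap, a mean of 39.2 ± 0.783 against 24.6 ± 12.5 CPM (0.58, SE 0.362, adjusted p = 0.862), with shares of 14% and 8.99% in DEP and 4.43% and 12.3% in PBS mice, which overlapped. Mouse 2 had the lowest share of Mrc1, Cd36, Stab1, Cd163, Folr2 and Lyve1, at 44.3%, 6.96%, 19.6%, 1.90%, 4.43% and 2.53%. It also had the lowest median depth, 2671.5 UMIs against 3335 to 4683.5 in the other mice. The part of depth in these shares was not tested beyond thinning.

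**Figure D3:**
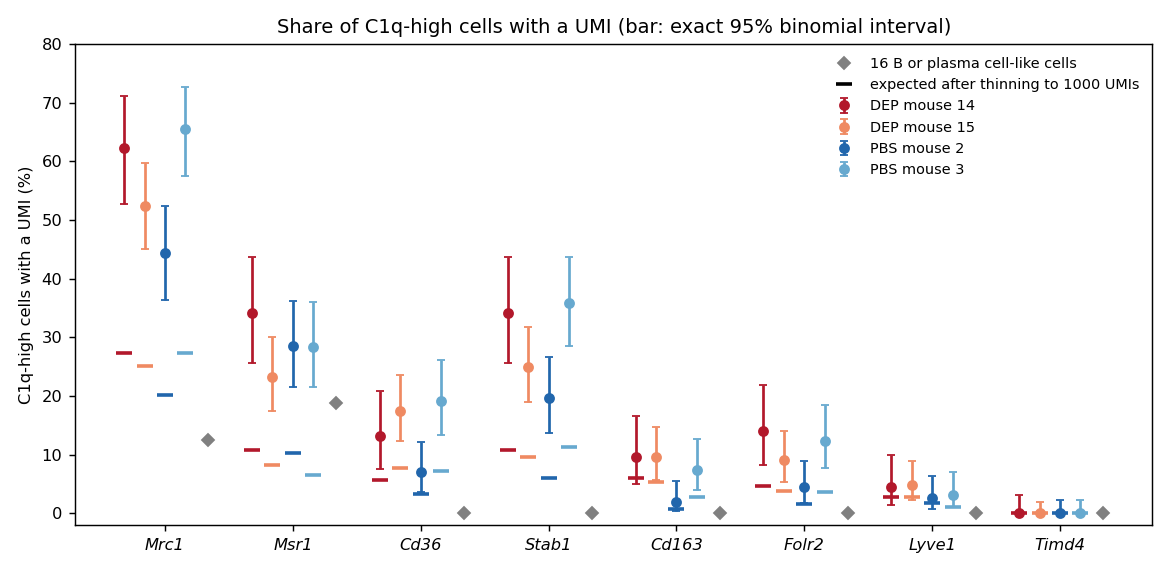
Share of C1q-high cells with a UMI (y axis, %) for each receptor (x axis), with 1 point and exact 95% binomial interval per mouse, a dash for the share expected after thinning each cell to 1000 UMIs, and a grey diamond for the 16 cells with B or plasma cell markers. For Cd163 the DEP mice sit at 9.65% and 9.52% and the PBS mice at 1.90% and 7.41%, whereas for Mrc1 the mice of the groups interleave.

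The shares of DEP and PBS mice did not overlap for 2 of the 8 receptors, Cd163 and Lyve1, both higher in DEP. Of all genes found in 1% or more of these cells, 24.7% did not overlap either way. After thinning each cell to 1000 UMIs, Folr2 joined them at 4.61% and 3.86% against 1.64% and 3.60%, while the background rose to 34.4%. In all retained cells Cd163 and Lyve1 were again the receptors that did not overlap, against 26.3% of all genes. With all deposited cells, or without immunoglobulin markers, the Lyve1 shares of all cells overlapped, and Cd163 alone did not overlap, against 22.5% of all genes with all deposited cells. With 2 mice a group the exact two-sided permutation test cannot give a p under 0.333, which is the value for each receptor without overlap.

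By edgeR, 0 of the 6 tested receptors were called in C1q-high cells, where 0% of 5395 genes were called, 1 (Cd163) had an unadjusted p under 0.05 and DESeq2 called 0. Over all genes 321 had an unadjusted p under 0.05. In all retained cells 0 of 6 were called, against 0.0376% of 5318 genes, and Cd163 had 1.31 (log2, SE 0.389, unadjusted p = 0.00503, adjusted p = 0.586). None of the related lists held a called gene in any of the DEP against PBS comparisons by edgeR.

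In Plac8-high cells, those of both classes included, Msr1 was higher and Mrc1 lower in CPM in both DEP mice, and neither passed the test. No background over all genes is given for CPM here either. Msr1 had 146 CPM in mouse 14 and 152 CPM in mouse 15, against 95.7 CPM in mouse 2 and 70.3 CPM in mouse 3, a difference of 0.83 (log2, SE 0.387, unadjusted p = 0.0451, edgeR adjusted p = 0.799). Mrc1 was at 81.5 and 58.1 CPM under DEP against 134 and 141 CPM under PBS, a difference of −1.02 (SE 0.396, unadjusted p = 0.018, adjusted p = 0.675). Stab1 was at 11.6 and 44.7 CPM under DEP against 57.4 and 31.3 CPM under PBS, which overlapped (−0.54, SE 0.707).

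The Mrc1 UMIs of Plac8-high cells came mostly from cells of both classes, which held 51 of the 59 UMIs and were 16 of 47 and 9 of 68 Plac8-high cells in the DEP mice and 18 of 34 and 6 of 31 in the PBS mice. Without them the Mrc1 values of the groups overlapped, and the fitted difference was −0.85 (adjusted p = 0.985). Msr1 CPM overlapped as well in Plac8-high only cells, at 126 and 170 under DEP against 140 and 56.4 under PBS. Of the 3 receptors tested 0 were called, 2 had an unadjusted p under 0.05, and DESeq2 called 0. EdgeR called 0% of 5102 genes in this comparison, 302 had an unadjusted p under 0.05 and DESeq2 called 0. Cd163, Cd36, Folr2, Lyve1 and Timd4 were below the filter, with a UMI in 1.67%, 2.22%, 2.78%, 1.11% and 0.556% of Plac8-high cells. The shares did not overlap for 3 of 8 receptors (Msr1 higher in DEP, Folr2 and Lyve1 higher in PBS), against 30.3% of all genes, and Folr2 and Lyve1 rested on 5 and 2 cells. With all deposited cells 5 of 8 did not overlap, Cd163 and Mrc1 (both higher in PBS) joining them, against 32.7% of all genes.

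The difference between classes in the DEP effect was tested directly, and 0 of 6 receptors were called, against 0.396% of 5306 genes. Of the receptors 0 had an unadjusted p under 0.05, and DESeq2 called 0 genes. Cd163 had a difference of 5.74 with an SE of 3.29 and Msr1 −0.66 with an SE of 0.543. Of the related lists F13a1, a clotting factor subunit made by some macrophages, was called at 2.29 (adjusted p = 3.31e-05).

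Within C1q-high cells, pooled over the mice, the receptors other than Msr1 were found in the same cells more often than their shares gave. Of 623 cells, 149 had a UMI of 0 receptors, 216 of 1, 140 of 2 and 118 of 3 or more, with a mean of 1.46 per cell. By mouse, 24.6% and 18.5% of C1q-high cells of the DEP mice and 10.8% and 23.5% of those of the PBS mice had 3 or more. Of the 131 Plac8-high only cells, 80 had 0 receptors and 0 had 3 or more, which allows up to 2.29%.

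**Figure D4:**
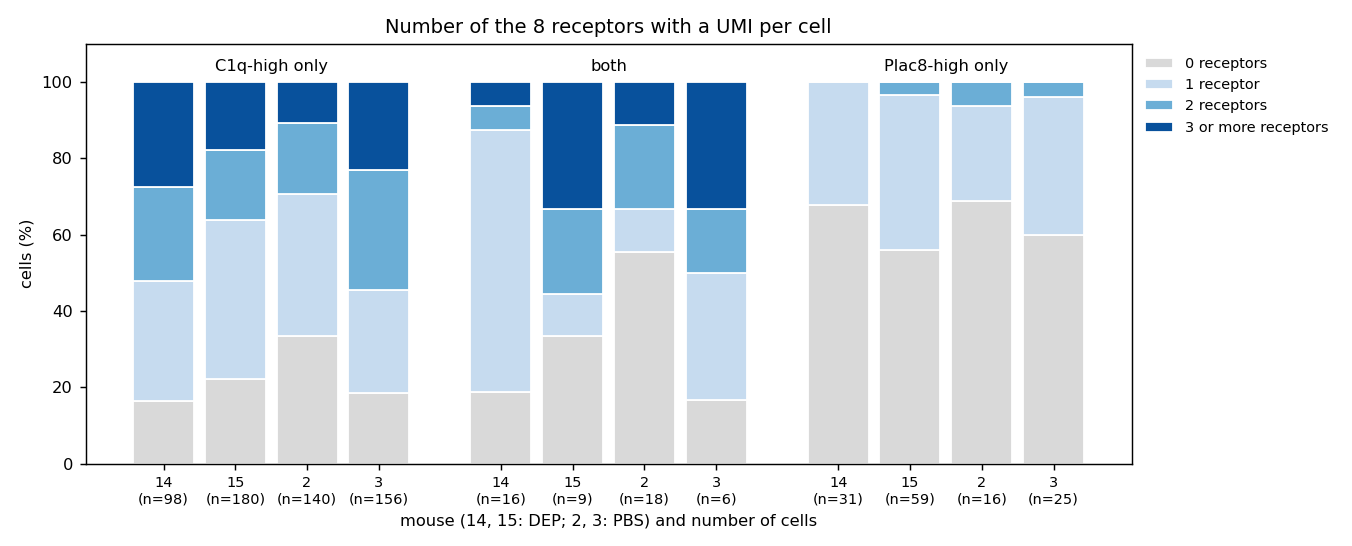
Share of cells (y axis, %) with a UMI of 0, 1, 2 or 3 or more of the 8 receptors, stacked per mouse (x axis, with the number of cells) for C1q-high only cells, cells of both classes and Plac8-high only cells. The darkest segment, 3 or more receptors, is 10.7% to 27.6% in C1q-high only cells and is missing in Plac8-high only cells.

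For each pair of receptors the cells with both were set against the number expected from the shares in the same mouse, and against the number expected within 3 bins of depth per mouse, since a deep cell has more of every gene. Of 21 pairs of the 7 receptors detected in C1q-high cells, 19 lay above the number expected from the shares and 20 above that expected within depth bins. After thinning to 1000 UMIs, 17 lay above the number expected from the thinned shares in the same mouse, without depth bins. The pairs share libraries and depth and are not independent of each other, so that no p is given. Pooled over the mice, all 15 pairs without Msr1 lay above under both, and of the 6 pairs with Msr1, 2 lay above after thinning. By mouse, Cd163 with Cd36 lay above the number within depth bins in 2 of the 4 mice, both DEP. Stab1 with Cd163, with Mrc1 and with Lyve1 lay above in 3, and the remaining pairs without Msr1 in all 4.

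Within depth bins the ratios were highest among Cd163, Folr2 and Lyve1. Cd163 and Lyve1 were together in 11 cells, 5.44 times the number expected within depth bins and 7.49 times after thinning, in other words 25.0% of cells with Cd163 and 47.8% of cells with Lyve1. Folr2 and Lyve1 were together in 12 cells (5.25 and 7.22 times), and Cd163 and Folr2 in 14 cells (3.17 and 5.58 times). In each of the 4 mice these 3 pairs lay above the number expected within depth bins.

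Cd36 was also found with these receptors, at lower ratios within depth bins. Cd36 and Folr2 were together in 21 cells (2.18 and 3.87 times), Cd36 and Lyve1 in 10 (2.89 and 6.17 times) and Cd36 and Stab1 in 41 (1.49 and 1.94 times). Mrc1 was found in most cells that had another receptor, in 81.7% of cells with Folr2, 75.0% with Cd163, 73.9% with Lyve1 and 71.1% with Cd36, against 55.5% of all C1q-high cells. Its ratios within depth bins were accordingly lower, from 1.04 with Msr1 to 1.40 with Lyve1.

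Msr1 stood apart from the other receptors after thinning, and less clearly within depth bins. Mrc1 and Msr1 were together in 108 cells, 1.04 times the number expected within depth bins and 0.99 times after thinning. Msr1 and Lyve1 were together in 5 cells (0.912 and 0.453 times) and Msr1 and Cd163 in 11 (1.12 and 0.671 times). Msr1 and Cd36 were together in 31 cells (1.20 and 1.01 times), above the number expected within depth bins in each of the 4 mice. Within depth bins that ratio was close to the 1.22 times of Mrc1 and Cd36. In Plac8-high cells Mrc1 and Msr1 were together in 10 cells, and the other pairs had at most 9.

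**Figure D5:**
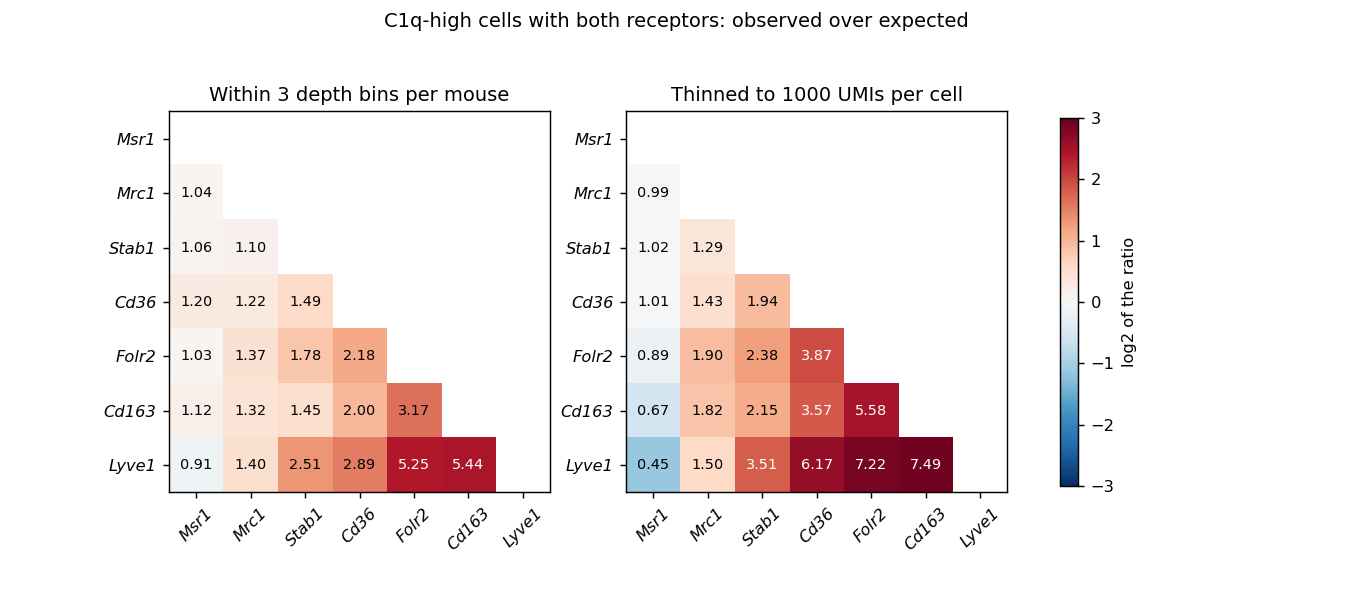
Number of C1q-high cells with both receptors of a pair divided by the number expected (value in each square, colour on a log2 scale), within 3 bins of depth per mouse at left and after thinning to 1000 UMIs per cell at right. Ratios rise toward the lower right corner, from 1.04 for Mrc1 with Msr1 to 5.44 for Cd163 with Lyve1 at left, and the Msr1 column stays near or below 1 at right.

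At least 2 of Cd163, Folr2 and Lyve1 were found in 25 of the 623 C1q-high cells, 5 and 12 in DEP mice 14 and 15 and 3 and 5 in PBS mice 2 and 3, and all 3 in 6 cells, 4 of them in mouse 14. This set was formed after the values were seen, and its values are a description. The 25 cells had 612 CPM of Mrc1 against 280 CPM in the other 598 C1q-high cells, 273 against 93.8 CPM of Stab1 and 262 against 53.7 CPM of Cd36, and 76.5 against 107 CPM of Msr1. Their median C1q share was 1.76% against 1.78%, and their median depth 3203 against 3755.5 UMIs, so that they were neither deeper nor richer in C1q. They also had 372 against 19.5 CPM of Cbr2, a carbonyl reductase, 361 against 58.8 CPM of F13a1 and 3192 against 1271 CPM of the chemokine Ccl8. The chemokine Pf4 was at 3542 against 1142 CPM, Gas6 at 208 against 46.7 CPM and the transcription factor Maf at 273 against 98 CPM.

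The genes most like each receptor were sought by the within-mouse correlation of log2(UMIs per 10000 + 1) across C1q-high cells, averaged over the 4 mice, for the 6 receptors found in 5% or more of these cells. Cells of 1 mouse share a library and the receptors are sparse, so that the values are descriptions. Mrc1 was most like Pf4 (mean r = 0.395), with a range of 0.335 to 0.470 over the mice. Cd163 was most like Cbr2 (0.378). Folr2 was most like Cbr2 (0.358), Pf4 (0.345) and F13a1 (0.320). The range over the mice was 0.0135 to 0.513 for Folr2 with Cbr2, so that it was near 0 in 1 mouse, 0.290 to 0.434 with Pf4 and 0.236 to 0.511 with F13a1. Cd163 with Cbr2 ranged from 0.189 to 0.483. Cd36 was most like Pf4 (0.316) and Dok2 (0.30). Msr1 and Stab1 had no gene at 0.3 or above.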

How the data were processed

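Cells of 4 mice were sequenced with the 10x Single Cell 3′ v2 kit. The authors made the deposited UMI counts with Cell Ranger and STAR 2.6.1a on mm10, per the submitters' notes, removed cells by UMI number, gene number and mitochondrial share, and searched for doublets. No doublet caller was run here.

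In place of the study's reference-based annotation, cells in which at least 3 markers of another class were detected were left out. UMIs were summed per mouse and class. Genes above 1 CPM in 2 or more libraries and with a UMI in 5% or more of the cells were tested in R 4.3.3 with edgeR 4.0.16 (TMM, quasi-likelihood, Benjamini-Hochberg, threshold 0.05). The replicates were separate mice. Comparisons of classes held the mouse as a block, because both classes came from the same animal, and DEP and PBS mice were unpaired. DESeq2 1.42.0, other cuts, no filter, library size, all deposited cells, thinning to 1000 UMIs and leaving out each mouse were alternatives. Shares carry exact 95% intervals (scipy 1.17.1, Python 3.11.15), and 3 counts set the limit of a 0. Figures used matplotlib 3.10.9. The thinning formula and the search for neighbours by correlation were checked on simulated cells.

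The receptors and lists were chosen with earlier results of these data known. All 8 receptors were named, with called genes of each list (at most 5 by size of change) and up to 3 neighbours at a mean r of 0.3 or more. The comparisons of cells of both classes and the set of Cd163, Folr2 and Lyve1 were chosen after values were seen. Promoters come from RefSeq (GRCm38.p6) and gene positions from GENCODE M21 (GRCm38). Some genes of the lists are not reported here.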

Additional observations from a re-analysis of the deposited data

Results flagged for a closer look

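Folr2 and Lyve1 were drawn out because their DEP against PBS differences had opposite signs in the 2 cell classes. Folr2 was higher in DEP than in PBS mice by a mean of 14.7 CPM in C1q-high cells and lower by a mean of −22.1 CPM in Plac8-high cells, where it was at 2.24 against 24.3 CPM. In cells of 1 class alone, edgeR's test of the difference between the classes gave an adjusted p of 0.965 for Folr2. Lyve1 was higher in DEP mice by 19.0 CPM in C1q-high cells and differed by −16.5 CPM in Plac8-high cells, where it was at 0 CPM in both DEP mice and at a mean of 16.5 CPM in the PBS mice. Lyve1 did not pass the filter on low counts and the difference was not tested. In Plac8-high cells Folr2 rested on 7 UMIs in 5 cells and Lyve1 on 4 UMIs in 2 cells, and 6 of the 7 and all 4 came from cells that were also C1q-high.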

How the results depend on the processing

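Among the recomputed counts of called receptors and of receptors without overlap, 83 stayed within 1.5 times the reported count, 14 were lower, 1 rose from 0 and 3 rose by more. Of 538 recomputed single values, 482 kept their direction and side of the threshold. No receptor was called for DEP against PBS in C1q-high cells, but 1 (Cd163) was with no filter on low counts. In the class contrast 5 receptors were called, and 3 after thinning, where 4 were tested. Without the replicate block, that is without pairing the classes of a mouse, 5 receptors and 1054 genes were called, against 5 and 1059 with it. DEP and PBS mice share no replicate number. For cells of both classes against Plac8-high cells, 2 receptors became 1 with C1q at 1% or more and after thinning, and 1 to 2 with a mouse left out. For C1q-high cells against cells of both classes, 1 became 0 with C1q at 1% or more, DESeq2, Plac8 at 0.05% or more, Plac8 at 3 or more UMIs, all deposited cells, library size alone and thinning, and 0 to 1 with a mouse left out. The 2 receptors without overlap between DEP and PBS mice became 3 to 6 with a mouse left out, when 1 group has a single mouse. The Lyve1 difference in share of 1.76 percentage points was 1.38 after thinning, 0.94 with all deposited cells and 0.97 without immunoglobulin markers.

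Signs turned only for uncalled differences. For DEP against PBS in all retained cells, Cd36 was −0.017 with all deposited cells and −0.56 thinned, and Stab1 was 0.14 without immunoglobulin markers, 0.016 with DESeq2, 0.12 with all deposited cells, 0.018 with library size alone and 0.34 thinned. In C1q-high cells Mrc1 was −0.047 and Cd36 −0.38 thinned. In the class contrast Msr1 was −0.0063 with Plac8 at 3 or more UMIs and −0.22 with library size alone. The difference of the DEP effect for Mrc1 was −0.35 with C1q at 1% or more. For cells of both classes against Plac8-high cells Cd36 was −2.03 thinned, and for C1q-high cells against cells of both classes Folr2 was −0.019 and Stab1 −0.0020 without immunoglobulin markers. With a mouse left out, DEP against PBS in all retained cells ran from −0.35 to 0.078 for Mrc1, −0.27 to 0.62 for Cd36, −0.10 to 0.67 for Msr1 and −0.25 to 0.32 for Stab1. In C1q-high cells it ran from −0.14 to 0.21 for Mrc1, −0.12 to 0.80 for Cd36, −0.045 to 0.59 for Msr1 and −0.10 to 0.53 for Stab1, and in Plac8-high cells from −1.85 to 0.046 for Stab1. Msr1 ran from −0.046 to 0.37 in the class contrast and from −0.63 to 0.15 for cells of both classes against Plac8-high cells. The difference of the DEP effect ran from −4.90 to 1.96 for Mrc1, −3.66 to 0.078 for Cd36 and −0.089 to 5.97 for Stab1. For C1q-high cells against cells of both classes Folr2 ran from −0.35 to 1.76 and Msr1 from −0.011 to 0.61. The cause was not tested.

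Over all genes, DEP against PBS gave 2 calls in all retained cells (DESeq2 1, no filter 57, a mouse left out 0 to 52), 0 in C1q-high cells (library size alone 5, no filter 30, a mouse left out 0 to 47) and 0 in Plac8-high cells (no filter 29, a mouse left out 17 to 22, both classes left out 19). The difference of the DEP effect gave 21 (DESeq2 0, thinning 0, all deposited cells 3, C1q at 1% or more 6, a mouse left out 10 to 35). The class contrast gave 1059 (DESeq2 579, 343 higher and 236 lower). With 2 mice a group and few UMIs per cell, differences in Lyve1, Cd163 or Folr2 within the spread between mice were not detectable.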

Other observations

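Genes used as markers of long-lived macrophages did not all follow the receptors across the classes. F13a1 was lower in C1q-high only than in Plac8-high only cells by −2.13 on the log2 scale, while within C1q-high cells it was at 361 CPM in the 25 cells with at least 2 of Cd163, Folr2 and Lyve1 and at 58.8 CPM in the other 598. The 25 cells had 17664 CPM of H2-Ab1, a chain of MHC class II, against 25829 CPM, and 26693 against 41354 CPM of the lipoprotein Apoe. Cx3cr1, the fractalkine receptor, was at 251 against 443 CPM. The 25 cells were chosen by the receptors after their values were seen, and these values are a description with no test.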
